A study of Mus with 4 samples.

Results

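Cytokine, chemokine and receptor genes were examined in cochlear RNA of humanized Otof c.1315 C>T mice, which carry a premature stop codon in the gene of otoferlin. Members were the rows of the expression table whose symbols are those of CC, CXC and CX3C chemokines, their receptors, interleukins and interleukin receptors, Tnf, the Tnfrsf1 group of receptors, interferon gamma, interferon receptors, colony-stimulating factors, Lif and Osm. The rule found 108 of the 21230 genes listed that are reported here. It used symbols alone and no measured value. The 2 RESTARTv3 libraries came from mice of this genotype treated with RESTART v3, which the study defines as a guide small nucleolar RNA, an isoform of the pseudouridine synthase DKC1 and a transfer RNA for reading through the stop codon, and which was carried by the viral vector AAVie. The 2 untreated libraries came from mice of the same genotype without treatment. No library is labelled as coming from mice injected with an empty or control vector. Whether the untreated mice had surgery or a control vector is not stated for these libraries. The surgery, the vector and its cargo therefore cannot be told apart here. The labels do not say which mice gave each library, and the age at harvest is not given for these libraries in the sources used here. The study calls the replicates independent; where they share an animal or a pool, p-values measure only the spread between libraries.

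Chemokines are small secreted proteins that bind receptors of the G protein-coupled class on leukocytes and draw those cells along a gradient. Interleukins, tumor necrosis factor and colony-stimulating factors act through receptor chains that are often shared, so that one chain serves several ligands. Many ligands also have a brake, such as a receptor antagonist, a decoy receptor or a binding protein. In the cochlea, resident macrophages and cells of the lateral wall are known sources of chemokines, and Cx3cl1 is known as a neuronal ligand for the macrophage receptor Cx3cr1.

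The table gave RPKM, reads per kilobase of gene and per 1000000 reads of the library. Behind these values stood library totals of 71144247 and 61040077 reads in RESTARTv3 replicates 1 and 2, against 39650172 and 56739609 reads in the untreated libraries, which are called A and B in no order because their columns carry one header. Listed genes took up 53.7% and 26.7% of the total in the RESTARTv3 replicates, against 49.9% and 56.2% in the untreated libraries. Reads are given below as scaled reads, that is, whole reads divided by a median-of-ratios size factor of 1.65 and 0.684 for RESTARTv3 replicates 1 and 2, against 0.660 and 1.34 for untreated libraries A and B. Untreated library A stood apart: it was the lowest or the highest of the 4 libraries for 87.3% of the 18448 genes tested and for 77.4% of the members tested. Over the members, the 2 RESTARTv3 libraries differed by a median of 0.295 on the log2 scale, against 0.916 for the 2 untreated libraries. All 10 hair cell markers searched were listed, with summed scaled reads of 9916 and 8556 in the RESTARTv3 replicates against 15316 and 11188 in untreated libraries A and B.

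No cytokine, chemokine or receptor gene passed an adjusted p of 0.05. Of the 108 members, 23 had a mean RPKM of at least 1 and entered the test on log2 RPKM, where limma called 0 of 23 members and 0% of 5076 genes. With whole reads recovered from RPKM, 93 members had a mean of at least 10 reads and 15 did not; limma voom called 0 of 93 members and 0% of 18448 genes. At an unadjusted p under 0.05 the same fit held 11 members, all higher in RESTARTv3, against 1.37% of all genes tested that were higher and 0.764% that were lower. On log2 RPKM, 0 of 23 members had an unadjusted p under 0.05, beside 0.118% of the 5076 genes that were higher and 1.3% that were lower. The result on reads depended on untreated library B: without it limma voom called 45 of 93 members, 27 higher and 18 lower, but also 47.5% of all genes, and without any other single library it called 0 members.

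The members lay to the higher side of all genes. The median log2 change, RESTARTv3 over untreated, was 0.37 over the 93 members and 0.0022 over all genes tested, and 65 of the 93 members (69.9%) had a positive change, against 50.1% of all genes. In the test on log2 RPKM the median was 0.0094 over the 23 members and -0.41 over the 5076 genes. In scaled reads, 36 members (38.7%) had their 2 RESTARTv3 libraries above the 2 untreated ones, beside 17.0% of all genes, and 8 members (8.60%) had them below, beside 21.4% of all genes. Division by the deposited library totals instead moved the median of all genes to -0.29 and that of the members to 0.068; on that scale, which is that of the deposited RPKM, 7 members (7.53%) lay above, beside 1.32% of all genes, and 12 (12.9%) lay below, beside 25.8%. Without untreated library A, 61 of 95 members (64.2%) lay above, beside 31.4% of all genes, and 14 members were higher at an unadjusted p under 0.05, beside 1.93% of all genes. The members share libraries, and many are neighbours, so these shares are descriptions and not tests.

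**Figure D1:**
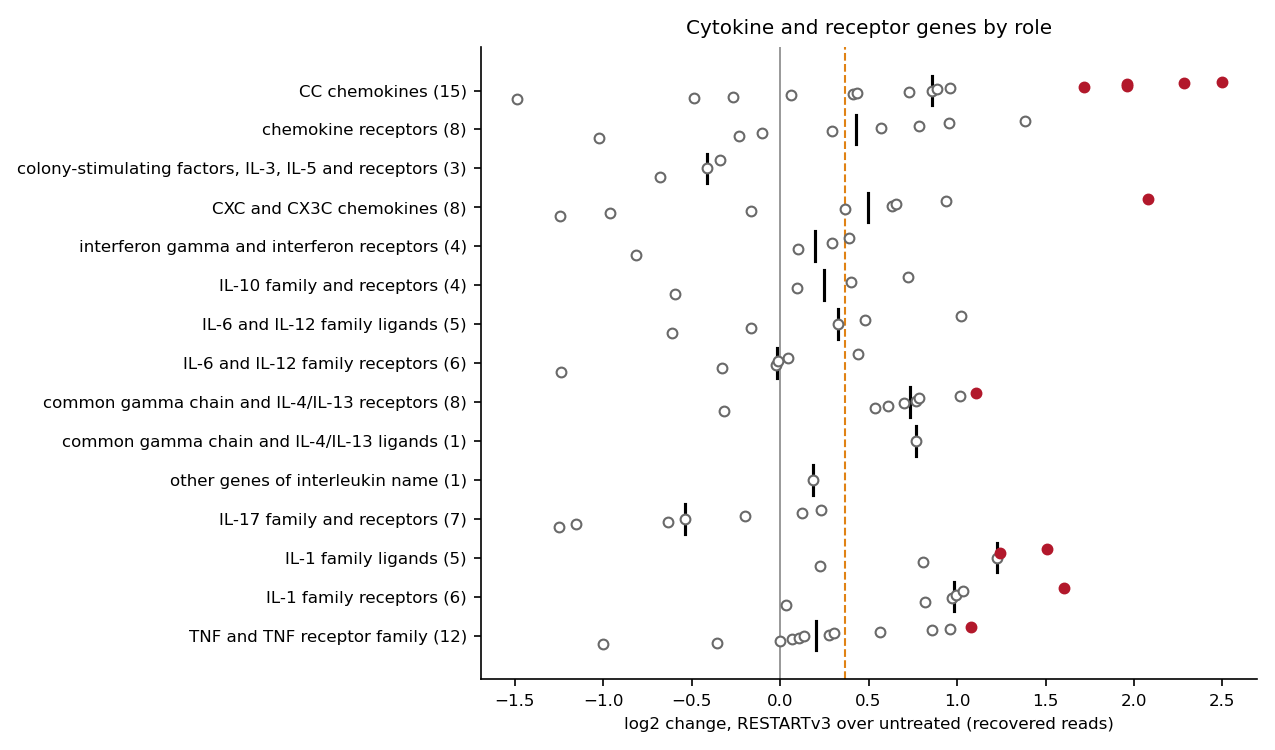
Log2 change of each of the 93 members tested (x axis, RESTARTv3 over untreated, recovered reads, limma voom, n = 2 libraries each) by role (y axis, number of members tested in brackets). Filled points have an unadjusted p under 0.05, short black bars are group medians, the grey line is 0 and the dashed line is the median of all members, 0.37; the filled points fall mostly among CC chemokines and IL-1 family genes, and the IL-17 family, the colony-stimulating factor group and the IL-6 and IL-12 family receptors have medians below 0, and the last of these changes sign with trimmed mean scaling.

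The 2 largest positive changes of the 93 members, those of Ccl8 and Ccl7, were CC chemokines. Of 17 listed, 15 were tested, and 5 were higher in RESTARTv3 at an unadjusted p under 0.05, beside 1.37% of all genes. In scaled reads, 8 had both RESTARTv3 libraries above both untreated libraries, beside 17.0% of all genes. On the deposited RPKM, 4 of the 15 did, beside 1.32% of all genes. The median log2 change of the 15 was 0.86, and 0.66 without untreated library A. Ccl2, Ccl7, Ccl8 and Ccl12 belong to the monocyte chemoattractant group, ligands that draw monocytes to a site. Ccl7 had 55.1 and 74.5 scaled reads in RESTARTv3 replicates 1 and 2, against 9.09 and 17.2 in untreated libraries A and B, a log2 change of 2.28 (SE 0.52, unadjusted p = 0.0046 by limma voom). Ccl8 had 115.0 and 46.8 scaled reads in RESTARTv3, against 13.6 and 11.9 in untreated, a log2 change of 2.50 (SE 0.59). The RESTARTv3 replicates differed more from each other for Ccl8 than for Ccl7, yet neither gene's groups overlapped. Ccl12 had 120.4 and 99.4 scaled reads in RESTARTv3, against 21.2 and 35.8 in untreated, a log2 change of 1.96 (SE 0.49). Ccl2 had 79.9 and 59.9 scaled reads in RESTARTv3, against 13.6 and 30.6 in untreated, a log2 change of 1.72 (SE 0.56). For Ccl2, Ccl7 and Ccl12 library A was the lowest of the 4 and library B stood between it and both RESTARTv3 replicates. The adjusted p of all 4 genes was 0.765. With each library left out in turn, the log2 change ran from 1.84 to 2.65 for Ccl7, 1.83 to 3.11 for Ccl8, 1.66 to 2.35 for Ccl12 and 1.25 to 2.32 for Ccl2. Those fits reuse the libraries in which the genes were picked, so they are no further test.

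Depth limits how finely these genes can be read. Ccl7 rested on 91 and 51 whole reads in RESTARTv3, against 6 and 23 in untreated, and Ccl8 on 190 and 32, against 9 and 16. In the order of protein-coding genes on chromosome 11 (annotation of GRCm38.p6, used here for names, lengths and order), Ccl2, Ccl7, Ccl11, Ccl12 and Ccl8 follow one another with no other such gene between them. Ccl11, the eosinophil attractant of this row, had 111.9 and 108.1 scaled reads in RESTARTv3, against 37.9 and 91.0 in untreated, a log2 change of 0.89 (SE 0.56, unadjusted p = 0.16). A further run of CC chemokines on the same chromosome, Ccl5, Ccl6, Ccl3 and Ccl4, held no gene at an unadjusted p under 0.05. Of all genes tested, 1.37% were higher and 0.764% lower at that p.

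Ccl22, a ligand of Ccr4 made by dendritic cells and macrophages, was the fifth of the CC chemokines with a small unadjusted p. It had 19.4 and 35.1 scaled reads in RESTARTv3, against 4.55 and 8.21 in untreated, on 3 and 11 whole reads in untreated libraries A and B. Ccl6, a myeloid chemokine of rodents and the CC chemokine of highest RPKM, had 1380 and 1271 scaled reads in RESTARTv3, against 444.1 and 1006 in untreated, a log2 change of 0.96 (SE 0.50). Its groups did not overlap, but the distance from replicate 2 to library B was smaller than that between the 2 untreated libraries. Ccl5, a chemokine made by T and natural killer cells, overlapped between groups, with 121.6 and 168.0 scaled reads in RESTARTv3 against 137.9 and 80.6 in untreated. Ccl21a, a homeostatic chemokine of lymphatic vessels, had 37.5 and 13.1 scaled reads in RESTARTv3, against 154.6 and 27.6 in untreated, and its groups overlapped. Ccl19, Ccl21a and Ccl27a have near-identical copies, so their reads are uncertain.

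**Figure D2:**
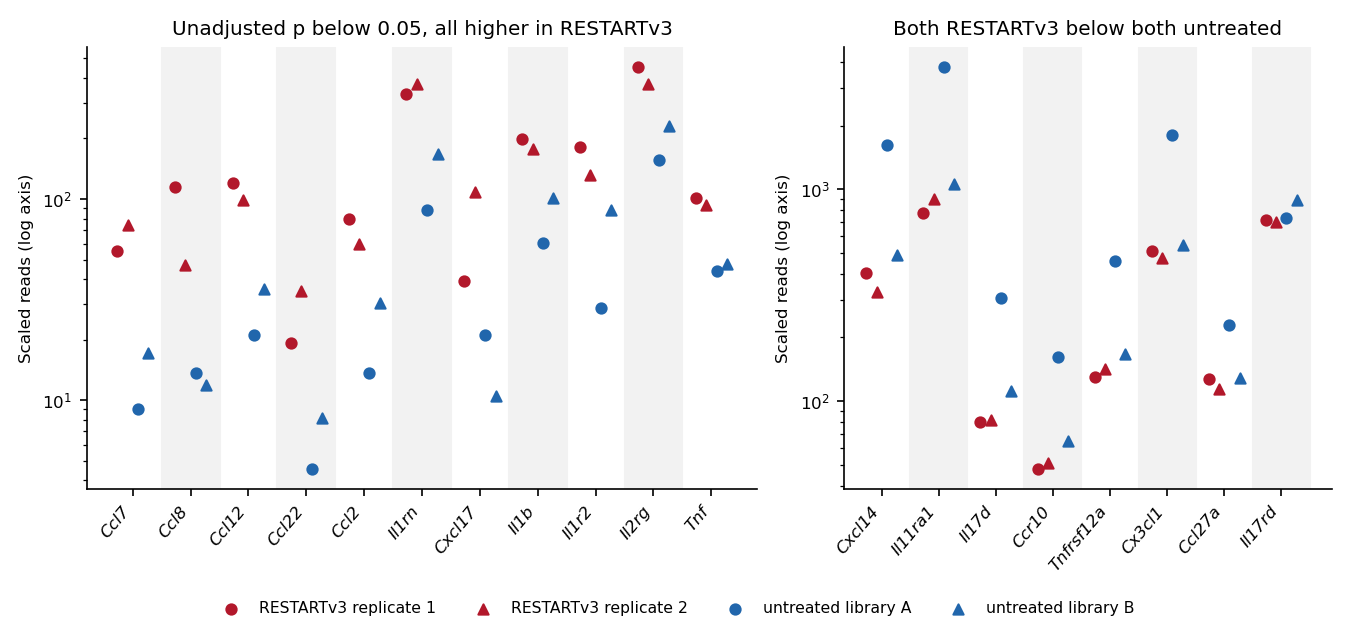
Scaled reads (log axis) in each library for the 11 members with an unadjusted p under 0.05 (left panel) and the 8 members with both RESTARTv3 libraries below both untreated libraries (right panel); red marks are RESTARTv3 replicates, blue marks untreated libraries. In the left panel untreated library B lies between library A and the RESTARTv3 replicates for most genes, while in the right panel library A is the highest for all but Il17rd and library B lies close to the RESTARTv3 replicates.

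Among the 8 chemokine receptors listed, all 8 were tested, and 2 had RESTARTv3 above untreated with no overlap in scaled reads, beside 17.0% of all genes. On the deposited RPKM, 0 of the 8 did, beside 1.32% of all genes. None of the 8 had an unadjusted p under 0.05, beside 1.37% of all genes that were higher and 0.764% that were lower. Ccr1, a receptor of myeloid cells that binds Ccl3, Ccl5 and Ccl7, had 581.5 and 441.3 scaled reads in RESTARTv3, against 104.6 and 343.2 in untreated, a log2 change of 1.38 (SE 0.63). Cxcr6, the receptor of Cxcl16 on T and natural killer T cells, had 90.8 and 74.5 scaled reads in RESTARTv3, against 25.8 and 67.9 in untreated, a log2 change of 0.95 (SE 0.59). For both, untreated library B lay nearer to the RESTARTv3 replicates than to library A. Ccr2, the main receptor of Ccl2, Ccl7 and Ccl12, was not analysed here.

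Cxcr4, the receptor of Cxcl12 on progenitor and immune cells, was the chemokine receptor of highest RPKM, and its values were set by library: 2244 and 1374 scaled reads in RESTARTv3, against 609.3 and 1654 in untreated. Cxcr3, the receptor of Cxcl10 on activated T cells, had 44.2 and 27.8 scaled reads in RESTARTv3, against 28.8 and 19.4 in untreated. Both receptors overlapped between groups. Ccr10, a receptor of Ccl27a and Ccl28, went the other way, with 47.8 and 51.1 scaled reads in RESTARTv3 against 162.2 and 64.9 in untreated, a log2 change of -1.03 (SE 0.58). Its ligand Ccl27a, a keratinocyte chemokine, had 127.7 and 114.0 scaled reads in RESTARTv3, against 228.9 and 129.1 in untreated. For both, most of the distance came from library A, which was the highest of the 4.

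Of 11 CXC and CX3C chemokines listed, 8 were tested, and their median log2 change was 0.50. Cxcl12, the homeostatic ligand of Cxcr4, was the member of highest RPKM in the table, with 17.1 and 7.10 RPKM in RESTARTv3 against 5.28 and 14.4 RPKM in untreated; in scaled reads it had 9424 and 8126 in RESTARTv3, against 4071 and 7803 in untreated. The deposited RPKM overlapped between groups while the scaled reads did not. Cxcl10, an interferon-induced ligand of Cxcr3, had 547.0 and 220.6 scaled reads in RESTARTv3, against 257.7 and 137.3 in untreated, a log2 change of 0.94 (SE 0.62, unadjusted p = 0.18). RESTARTv3 replicate 1 was the highest for Cxcl10, but replicate 2 lay below untreated library A, so the groups overlapped. Cxcl11, a further interferon-induced ligand of Cxcr3, lay under the read minimum with 20 and 8 whole reads in RESTARTv3 against 3 and 5 in untreated, and Cxcl9 was not analysed here.

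Cxcl17, a mucosal chemokine, had 39.3 and 108.1 scaled reads in RESTARTv3, against 21.2 and 10.4 in untreated, a log2 change of 2.08 (SE 0.68, unadjusted p = 0.022 by limma voom). On the log scale, its RESTARTv3 replicates differed from each other by more than the distance from RESTARTv3 replicate 1 to untreated library A. Cxcl14, a chemokine of epithelia and fibroblasts, had 402.4 and 327.3 scaled reads in RESTARTv3, against 1613 and 491.7 in untreated, a log2 change of -1.24 (SE 0.64). Cx3cl1, the ligand of Cx3cr1, had 509.5 and 476.4 scaled reads in RESTARTv3, against 1808 and 544.0 in untreated, a log2 change of -0.96 (SE 0.64). For both, untreated library B lay close to the RESTARTv3 replicates and library A far above.

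All tested IL-1 family members had a positive change, except that Il33 and Il1r1 turned negative with deposited library totals and without untreated library A. The 5 ligands listed were all tested, with a median log2 change of 1.22, which was 0.31 without library A. The 6 receptors and binding proteins had a median of 0.98, which was 0.29 without library A. Il1b, the secreted alarm cytokine of myeloid cells, had 197.9 and 176.8 scaled reads in RESTARTv3, against 60.6 and 101.5 in untreated, a log2 change of 1.24 (SE 0.47, unadjusted p = 0.039 by limma voom). Il1rn, the antagonist that occupies the IL-1 receptor without signalling, had 334.0 and 371.2 scaled reads in RESTARTv3, against 87.9 and 167.9 in untreated, a log2 change of 1.51 (SE 0.49, unadjusted p = 0.021). Il1r2, the decoy receptor that binds IL-1 and does not signal, had 181.5 and 131.5 scaled reads in RESTARTv3, against 28.8 and 88.0 in untreated, a log2 change of 1.60 (SE 0.63, unadjusted p = 0.044). In scaled reads, the ligand and both of these brakes thus lay higher in both RESTARTv3 replicates than in either untreated library. Of these genes, Il1rn alone kept that order on the deposited RPKM. There RESTARTv3 replicate 2 fell below untreated library B for Il1b (0.302 against 0.365) and for Il1r2 (0.0364 against 0.0513). Il1r1, the signalling receptor, had 367.3 and 415.0 scaled reads in RESTARTv3, against 306.2 and 463.4 in untreated, with a log2 change of 0.034 (SE 0.44).

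Il18bp, the secreted protein that neutralizes IL-18, had 405.4 and 369.7 scaled reads in RESTARTv3, against 206.1 and 233.6 in untreated, a log2 change of 0.82 (SE 0.41, unadjusted p = 0.093). Here the 2 untreated libraries lay close together, and both RESTARTv3 replicates stood above them. Il1a, the cell-bound partner of Il1b, had 49.0 and 52.6 scaled reads in RESTARTv3, against 10.6 and 41.0 in untreated. Il18r1, the IL-18 receptor, had 279.5 and 233.8 scaled reads in RESTARTv3, against 72.7 and 217.9 in untreated. In both, library B lay just below the RESTARTv3 replicates. Il33, an alarmin of stromal nuclei, overlapped between groups. Il1r2, Il1r1 and Il1rl2 are neighbours on chromosome 1.

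Receptors that use the common gamma chain, with those of IL-4 and IL-13, also lay mostly higher in scaled reads. Both RESTARTv3 replicates lay above both untreated libraries for 6 of 8 tested members, beside 17.0% of all genes. On the deposited RPKM this held for 0 of the 8, beside 1.32% of all genes. The median log2 change was 0.74, and 0.51 without library A. Il2rg, the common gamma chain itself, had 452.6 and 372.6 scaled reads in RESTARTv3, against 156.1 and 229.8 in untreated, a log2 change of 1.11 (SE 0.44, unadjusted p = 0.046 by limma voom). Il13ra1, a chain of the IL-4 and IL-13 receptor, had 560.9 and 699.9 scaled reads in RESTARTv3, against 204.6 and 444.0 in untreated. Il21r, the IL-21 receptor of lymphocytes, had 468.3 and 306.9 scaled reads in RESTARTv3, against 175.8 and 280.6 in untreated. Library A was the lowest of the 4 for each of these 3 receptors. Il4ra differed from them, with 956.6 and 835.8 scaled reads in RESTARTv3, against 1532 and 840.9 in untreated. Il15, a ligand that signals through Il2rg, had 254.1 and 229.4 scaled reads in RESTARTv3, against 90.9 and 212.7 in untreated, and Il7r was not analysed here.

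In the TNF group, 12 of 13 listed members were tested, with a median log2 change of 0.20 that turned to -0.10 with deposited library totals, and Tnf was the one with a small unadjusted p. It had 101.0 and 93.5 scaled reads in RESTARTv3, against 44.0 and 47.8 in untreated, a log2 change of 1.08 (SE 0.44, unadjusted p = 0.049 by limma voom, adjusted p = 0.765). Replicates agreed closely in each group, on 167 and 64 whole reads in RESTARTv3 against 29 and 64 in untreated. The receptors were less uniform: Tnfrsf1a, the widespread TNF receptor with a death domain, had 1723 and 1490 scaled reads in RESTARTv3, against 3031 and 1436 in untreated. Tnfrsf1b, the TNF receptor of immune and endothelial cells, had 1033 and 976.1 scaled reads in RESTARTv3, against 1023 and 829.0 in untreated. Both receptors overlapped between groups, with log2 changes of -0.36 (SE 0.48) and 0.14 (SE 0.39). Tnfrsf12a, the receptor of the TNF-like ligand TWEAK, had 129.5 and 141.7 scaled reads in RESTARTv3, against 459.3 and 167.1 in untreated. Tnfrsf14, a receptor of lymphoid cells, had 1962 and 1471 scaled reads in RESTARTv3, against 527.5 and 1598 in untreated, so its groups overlapped.

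The IL-6 and IL-12 families showed no common direction. Il6 was nearly unread, with 6 and 3 whole reads in RESTARTv3 against 1 and 4 in untreated, and a difference was not detectable at this depth. Il6st, the shared signalling chain gp130, had 9416 and 10204 scaled reads in RESTARTv3, against 9150 and 10708 in untreated, a log2 change of -0.013 (SE 0.36). Its 4 values lay close together, and the groups overlapped. Il6ra, the IL-6 binding chain, had 862.2 and 702.9 scaled reads in RESTARTv3, against 501.7 and 654.4 in untreated. Il12a, a subunit of IL-12 and IL-35, had 193.0 and 146.1 scaled reads in RESTARTv3, against 54.6 and 123.9 in untreated. For both, the 2 groups did not overlap but library B lay near RESTARTv3 replicate 2. Il11ra1, the IL-11 receptor, had 775.7 and 897.2 scaled reads in RESTARTv3, against 3773 and 1064 in untreated, a log2 change of -1.24 (SE 0.65), and its reads are uncertain because the mouse genome holds near-identical copies.

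The IL-17 family lay on the lower side, with a median log2 change of -0.54 over 7 tested of 9 listed members, which was -0.21 without library A. Il17d, a ligand made outside the immune system as well, had 79.9 and 81.8 scaled reads in RESTARTv3, against 306.2 and 111.9 in untreated, a log2 change of -1.16 (SE 0.60). Il17rc, a chain of the IL-17 receptor, had 163.4 and 228.0 scaled reads in RESTARTv3, against 1025 and 214.9 in untreated. Il17ra, the chain shared by the family, had 1884 and 1371 scaled reads in RESTARTv3, against 1672 and 1333 in untreated. Library A stood far above the other 3 libraries for Il17d and Il17rc, and not for Il17ra. The colony-stimulating factor group had a like pattern, since Csf1, the growth factor of macrophages, had 1167 and 1328 scaled reads in RESTARTv3, against 2568 and 1098 in untreated. Il34, the other ligand of the Csf1 receptor, had 221.5 and 280.6 scaled reads in RESTARTv3, against 733.6 and 225.3 in untreated. Without library A, the 3 tested members of this group all turned positive: the log2 change of Csf1 was 0.19 and that of Il34 was 0.12, so the negative sign of the group rested on that library.

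Interferon receptors and the IL-10 receptor chains held no member at an unadjusted p under 0.05, beside 1.37% of all genes that were higher and 0.764% that were lower. Ifngr1, the binding chain for interferon gamma, had 1690 and 1737 scaled reads in RESTARTv3, against 1055 and 1589 in untreated. Ifnar1, a chain of the type I interferon receptor, had 1990 and 1889 scaled reads in RESTARTv3, against 1378 and 1805 in untreated. Both lay higher in RESTARTv3 with log2 changes of 0.39 (SE 0.40) and 0.29 (SE 0.38), less than the distance between the 2 untreated libraries. Ifnar2, the partner chain, had 1444 and 1490 scaled reads in RESTARTv3, against 5504 and 1249 in untreated. Il10rb, a chain shared by IL-10 and type III interferons, had 1400 and 1381 scaled reads in RESTARTv3, against 1294 and 1310 in untreated, a log2 change of 0.095 (SE 0.37). Il10ra, its partner for IL-10, had 620.2 and 499.7 scaled reads in RESTARTv3, against 385.0 and 462.6 in untreated. Ifng and Il10 themselves were not analysed here.

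The 8 members that lay lower in both RESTARTv3 libraries were Cxcl14, Il11ra1, Il17d, Ccr10, Tnfrsf12a, Cx3cl1, Ccl27a and Il17rd. Library A was the highest library for 7 of them, and library B for Il17rd, a membrane protein that tempers fibroblast growth factor signalling. Of the 36 members that lay higher, library A was the lowest for 30 and library B for 6. Over all genes tested, library A was the lowest for 2836 of the 3138 that lay higher. It was the highest for 3586 of the 3947 that lay lower, so this pattern was not particular to the members. Fewer cells of a type and less RNA per cell cannot be told apart in these bulk samples.

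No pathway gene of another name passed an adjusted p of 0.05. None of 20 tested genes of JAK-STAT and SOCS signalling, which carries most interleukin and interferon signals to the nucleus, had an unadjusted p under 0.05. Beside each such count in this paragraph stand 1.37% of all genes that were higher and 0.764% that were lower. Of 10 other chemokine genes and atypical receptors, 4 had RESTARTv3 above untreated with no overlap in scaled reads, beside 17.0% of all genes. On the deposited RPKM, 1 of the 10 did, beside 1.32% of all genes. Of the 4, 2 had an unadjusted p under 0.05 (adjusted p = 0.765 by limma voom), a ligand and its receptor. Xcl1, a chemokine of natural killer and CD8 T cells, had 19.97 and 11.7 scaled reads in RESTARTv3, against 4.55 and 6.72 in untreated. Its values thus rested on few reads. Xcr1, its receptor on cross-presenting dendritic cells, had 29.0 and 32.2 scaled reads in RESTARTv3, against 12.1 and 14.2 in untreated. Of 23 tested TNF superfamily ligands and other receptors, 9 lay above untreated in both RESTARTv3 libraries, beside 17.0% of all genes, and 3 lay below, beside 21.4%. On the deposited RPKM, 2 of the 23 lay above, beside 1.32%, and 5 lay below, beside 25.8%. Tnfsf10, the death ligand TRAIL, was the one of the 23 with an unadjusted p under 0.05 (adjusted p = 0.765 by limma voom). None of 23 further cytokine receptors and ligands and none of 23 IL-1 and TNF signal adaptors had an unadjusted p under 0.05. The median log2 changes of these 5 lists were -0.058, 0.090, 0.20, 0.055 and 0.13 in this order, beside 0.0022 over all genes.

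Markers of immune and cochlear cell types are given beside these genes. Of 14 markers of T and natural killer cells, 13 were tested and 12 had groups that did not overlap, with RESTARTv3 higher, beside 17.0% of all genes, and summed scaled reads of 1418 and 1309 in RESTARTv3 against 692.7 and 868.5 in untreated; Trac was not analysed here. All 12 macrophage markers were tested and 6 lay higher, beside the same 17.0%, with sums of 33467 and 27964 in RESTARTv3 against 21729 and 24412 in untreated. These counts are of scaled reads. On the deposited RPKM, 3 of the 13 T and natural killer cell markers and 1 of the 12 macrophage markers lay higher, beside 1.32% of all genes. Cd68, Cd163, Mrc1 and the C1q chains overlapped between groups. Lyz2 alone gave 20477 and 14189 of the macrophage reads in RESTARTv3, against 7394 and 14188 in untreated. Without Lyz2, the sums of the remaining macrophage markers overlapped between groups. Sums over general leukocyte markers (8 of 10 tested), B cell markers (8 of 10) and neutrophil markers (8 of 10) overlapped between groups. By gene, 4 of 8 general leukocyte, 2 of 8 B cell and 3 of 8 neutrophil markers lay higher, beside 17.0% of all genes. On the deposited RPKM, 0 of 8 lay higher in each of these lists, beside 1.32% of all genes. None of the listed markers was at 0, but this holds for every gene listed. Of 9 supporting cell markers tested, 7 lay lower in both RESTARTv3 libraries, as did 6 of 10 hair cell markers, beside 21.4% of all genes. No marker of these 2 lists lay higher in both. Sums over supporting cell markers (9 of 10 tested) and over fibrocyte and mesenchyme markers (10 of 10) were highest in untreated library A, the second at 1107427 scaled reads, against 263602 and 301101 in RESTARTv3 and 315800 in untreated library B. Col1a1 with 644865 and Col1a2 with 318343 scaled reads made up most of that sum in library A, whereas Coch, Dcn, Lum, Pdgfra, Pou3f4 and Tbx18 of the same list were lowest there, and 6 of the 10 had a positive log2 change. The part of these cell types in the values of the members was not tested. The summed scaled reads of Ccl2, Ccl7, Ccl8 and Ccl12, a set chosen after their values were seen, were 370.3 and 280.6 in RESTARTv3, against 57.6 and 95.5 in untreated.

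**Figure D3:**
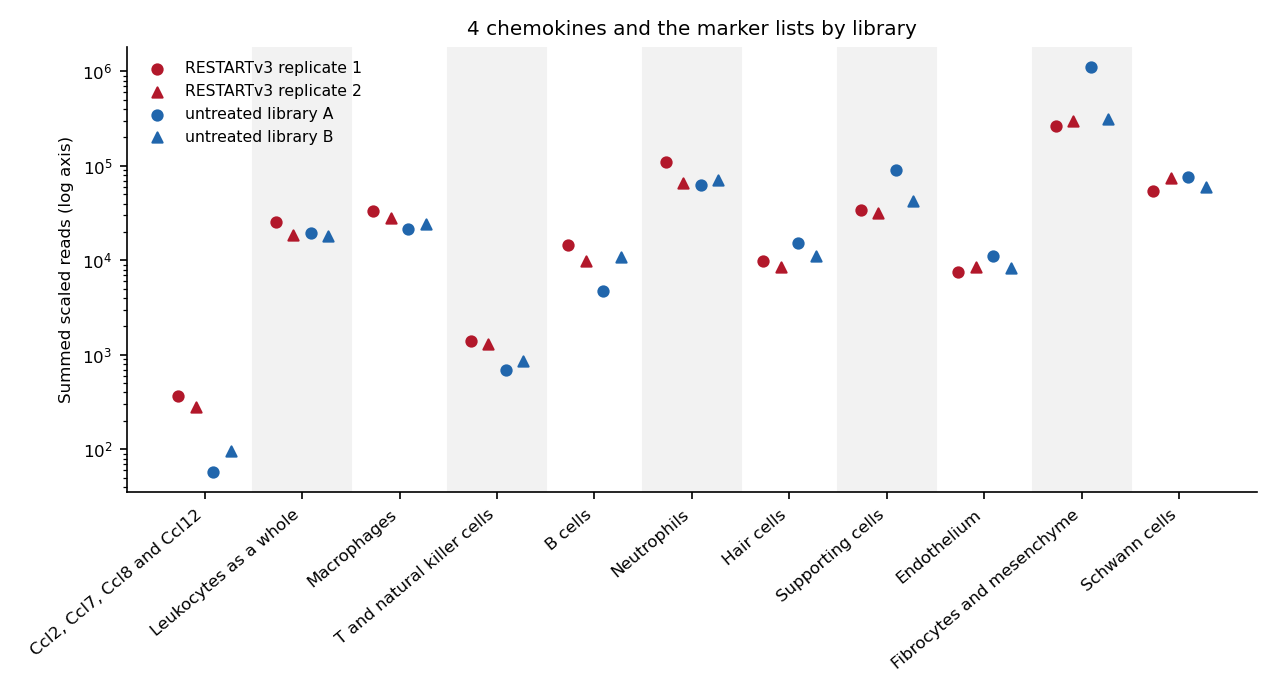
Summed scaled reads (log axis) of 4 chemokines (first column) and of the marker genes of each cell type, by library; red marks are RESTARTv3 replicates, blue marks untreated libraries. The chemokine sum lies at 370.3 and 280.6 in RESTARTv3 against 57.6 and 95.5 in untreated, the T and natural killer cell sum is also apart, and the fibrocyte and mesenchyme sum, mostly Col1a1 and Col1a2 there, is highest in untreated library A.

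Levels of some members cannot be read from the deposited RPKM. RPKM here divides by the span of the gene, introns included, and for 11 of the 108 members (10.2%) the length that gives whole reads was that of another gene whose symbol begins with theirs, against 3.86% of the 20325 listed genes with an annotated length. Tnf had been divided by 68730 bases, the span of Tnfrsf11a, and its own span is 2641 bases. Its deposited mean RPKM was 0.0247 in RESTARTv3 and 0.0135 in untreated, and over its own span the same reads gave 0.643 in RESTARTv3 and 0.352 in untreated, which is 26.0 times the deposited level. Il6 had the span of Il6ra (6.39 times), Csf3 that of Csf3r (6.24 times), Cxcl1 that of Cxcl15 (4.55 times) and Ccl2 that of Ccl20 (1.28 times). In the other direction, Il15 had been divided by the span of Il15ra, and its level over its own span was 0.402 times the deposited one. The ratio between libraries is the same on either length, so the log2 changes above do not depend on it, but the order of levels between genes and the minimum of 1 RPKM do. Of the other members, 84 had a length within 1% of the annotation, 6 within 5%, and 7 had a length that matched neither.

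**Figure D4:**
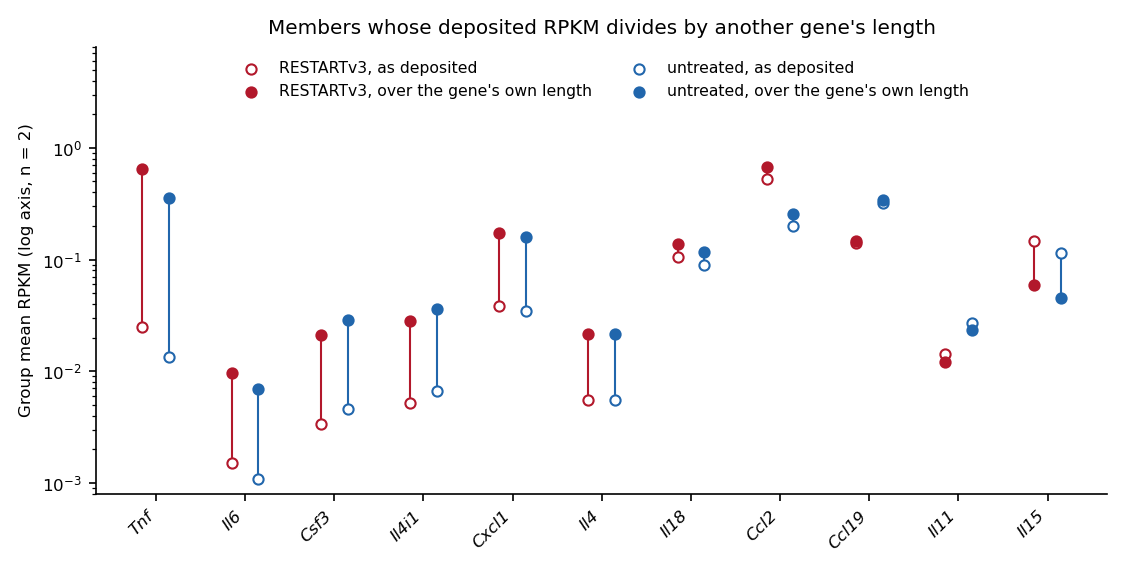
Group mean RPKM (log axis, n = 2 libraries each) of the 11 members whose deposited values divide by the length of another gene; open points are as deposited, filled points are over the gene's own annotated span, and lines join the same group, red for RESTARTv3 and blue for untreated. Tnf moves most, to 0.643 in RESTARTv3 and 0.352 in untreated, and the ratio of the groups stays the same for every gene.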

How the data were processed

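Per the labels and the study's methods, ribosomal RNA was depleted from cochlear total RNA and stranded low-input libraries were sequenced. The authors worked on read 2 (cutadapt 4.2 for trimming, removal of duplicates with Seqkit, then UMI-tools 1.0.0 to extract identifiers), mapped it with STAR 2.7.10b on GRCm39, used SAMtools 1.14 as a filter and HTSeq 1.14 as the counter, and deposited RPKM, not pooled. The strand setting of the counting is not given in the sources used here. The stated limit on replicates was 2-fold, but read ratios within a group reach 8-fold; a value of 0 does not occur in the table. Of 159 protein-coding genes of the GRCm38.p6 annotation that fit the symbols, 53 are not analysed here. Both untreated columns carry one header and were used with no replicate number.

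Whole reads were recovered for 100% of genes (tolerance 0.001) from the RPKM, a gene length and 4 library totals; where the length found is a fraction of the true one, reads are understated. Two-sided limma 3.58.1 in R 4.3.3 was run over the whole table on log2(RPKM + 0.5) with a trend (mean RPKM of at least 1) and, as voom, on reads scaled by median-of-ratios (mean of at least 10), with Benjamini-Hochberg adjustment at 0.05. Changes on the RPKM scale understate those of low genes. With 2 libraries a group, the smallest p of an exact permutation test is 0.333. Tables and figures were made with pandas and matplotlib in Python. Both fits were tested on simulated data.

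Named members were those past an adjusted threshold, up to 3 of smallest unadjusted p and 2 of highest RPKM per role, up to 8 highest and 8 lowest among members whose groups did not overlap, and a short list of well-known cytokines; a few more are named beside them as partners. A few genes that fit the symbols or lists are not reported here. Members, roles and lists were chosen with earlier results of these data known. A total of 10 alternatives to the fit on reads and 11 to that on RPKM were tried.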

Additional observations from a re-analysis of the deposited data

How the results depend on the processing

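No member passed the adjusted threshold under any of the 11 alternatives on log2 RPKM or under 8 of the 10 on recovered reads. With genes kept only where whole reads, before scaling, were within 2-fold in each group, 1 of 9 members passed, Cxcl17 (log2 change 2.54). The same fit called 4.17% of the 1701 genes kept. That filter selects genes on agreement of unscaled reads, and size factors were set anew on the kept genes, which lowers the spread the test uses. Cxcl17 had 65 and 74 whole reads in RESTARTv3, but 39.3 and 108.1 scaled reads in the main fit. Leaving out 1 library gave 0 to 45 members called, 45 of 93 without untreated library B, when 47.5% of all genes were called; the lone untreated library A is then assumed to vary like the RESTARTv3 pair. On reads the median log2 change of members stayed positive, 0.068 to 0.44; on log2 RPKM it was 0.0094 and ran from -0.57 without RESTARTv3 replicate 1 to 0.42 without replicate 2, with -0.31 without untreated library A and -0.012 with a pseudocount of 0.1. Members with groups apart were 44 of 93 and fell to 19 with deposited library totals, of which 7 were higher. In an alternative chosen after seeing the data, leaving out 1 library gave 55 to 79 members apart (60.4% to 84.9%, against 59.8% to 91.1% of all genes), 41 to 61 higher (45.1% to 64.2%, against 26.8% to 45.7%) and 13 to 25 lower (13.7% to 26.9%, against 31.4% to 45.4%). All 11 members of small unadjusted p had both RESTARTv3 libraries above both untreated ones in scaled reads. Their positive change with 1 library left out follows from that and is no further test. With deposited library totals, 4 of the 11 kept an unadjusted p under 0.05 by limma voom, beside 0.396% of all genes that were higher. Of 58 named members tested, 45 never changed sign. With deposited library totals the log2 change turned to -0.20 for Il10rb, -0.12 for Il16 and -0.19 for Il17ra. Il6st turned to 0.036 with trimmed mean scaling and to 0.010 with at least 50 reads, and Il31ra to 0.13 with the 2-fold filter. Over the libraries left out, log2 changes ran from -0.027 to 0.78 for Ccl5, -1.06 to 0.19 for Csf1, -1.92 to 0.25 for Ifnar2, -0.064 to 0.41 for Il16, -0.12 to 0.34 for Il17ra, -1.35 to 0.048 for Il22ra1, -0.93 to 0.30 for Il31ra, -1.61 to 0.12 for Il34, -1.13 to 0.46 for Il3ra, -0.78 to 0.13 for Il4ra, -0.099 to 0.094 for Il6st and -0.93 to 0.19 for Tnfrsf1a. The cause was not tested. No paired analysis was possible because the untreated columns carry no replicate number.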
